A study of Homo sapiens with 15 samples.

Results

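The genes examined were 10 genes of hyaluronan biology, CEMIP, CEMIP2, CD44, HAS2, HAS3, HYAL1, HYAL2, HYAL3, VCAN and UGDH, out of 60617 genes counted in 15 RNA-seq libraries of 12Z cells. All 10 passed the count filter, as did 23184 genes in all. CEMIP was chosen by its large fall with insulin in these libraries, so its insulin values are given as a description with no test, and the other members were chosen as genes of the same pathway with that result known.

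12Z is an immortalized epithelial line from an endometriotic lesion. Cells received non-targeting siRNA (NT) or siRNA against RSAD2 (siRSAD2), and 24 h later a pBabe plasmid, either empty (EV) or carrying the activating PIK3CA substitution H1047R. A further 24 h on they were serum starved for 4 h and then kept without serum for 24 h with 100 nM insulin or vehicle. The 5 groups of 3 libraries were NT EV vehicle, siRSAD2 EV vehicle, siRSAD2 EV insulin, siRSAD2 H1047R vehicle and siRSAD2 H1047R insulin. Every group was transfected with a siRNA and a plasmid, and insulin and H1047R were compared only in cells with RSAD2 knockdown. The H1047R plasmid was introduced by transient transfection, so the share of cells that carry it was not measured by these files.

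Hyaluronan is a long unsulfated glycosaminoglycan that synthases of the HAS family extrude through the plasma membrane from 2 activated sugars, 1 of them the UDP-glucuronate that UGDH makes. Outside the cell it is held by receptors such as CD44 and by proteoglycans such as versican (VCAN), and it is cut by CEMIP, CEMIP2 and the hyaluronidases HYAL1, HYAL2 and HYAL3. It is abundant in the endometrium and in peritoneal linings, where its turnover shapes adhesion, matrix hydration and inflammatory signalling.

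Gene counts totalled 16.1 to 39.7 M per library. RSAD2, the knockdown target, had 3 to 3.69 CPM in the NT libraries and 0.0768 to 0.691 CPM in siRSAD2 EV vehicle libraries, where CPM (counts per 1e+06) is scaled to the TMM library size. PIK3CA had 84.5 to 92.1 CPM in siRSAD2 EV vehicle and 199 to 223 CPM in siRSAD2 H1047R vehicle libraries, as the labels have it. With insulin PIK3CA was lower in the H1047R group, at 160 to 164 CPM, a log2 fold change of -0.38 ± 0.05 (edgeR adjusted p = 9.53e-06). RSAD2 had 0.624 to 1.41 CPM in siRSAD2 H1047R vehicle libraries, a log2 difference of 1.5 ± 0.46 from EV that did not pass (adjusted p = 0.108). The part of either in the H1047R comparisons was not tested. Of 9 epithelial markers 7 reached 1 CPM, and EPCAM and CDH1 did not, while all 12 stromal markers did. The epithelial markers summed to 2370 to 2410 CPM per NT library and 1920 to 2060 CPM per siRSAD2 EV vehicle library, and with siRSAD2 4 of the 9 fell. The stromal markers summed to 8310 to 8750 CPM per NT library, 8010 to 8110 CPM per siRSAD2 EV vehicle library and 6830 to 7530 CPM per siRSAD2 EV insulin library. Of these 12 markers 5 rose and 7 fell with siRSAD2, and 1 rose and 4 fell with insulin in EV cells. Over all tested genes 9.82% rose and 9.72% fell with siRSAD2, and 2.1% rose and 4.19% fell with insulin in EV cells. Immune markers summed to 4.20 to 12.4 CPM and endothelial markers to 7.33 to 12.2 CPM over all libraries. The part these markers may have in the results was not tested, and in bulk RNA fewer cells expressing a gene and less RNA per cell cannot be told apart. In siRSAD2 EV vehicle library 3, 486 genes stood over 3 times above every other library, against at most 8 genes in any other library, and none of the 10 hyaluronan genes was among them. siRSAD2 EV insulin library 2 also stood apart: chi-square divided by its degrees of freedom was 12.5 and 13.6 against its group's other libraries, whereas no other pair within a group exceeded 6.52.

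Levels of the 10 genes differed widely per kb of exon, the scale on which genes can be compared. In siRSAD2 EV vehicle cells CD44 had 177 ± 2.68 CPM per kb (SD, n = 3), CEMIP 49.3 ± 0.844 and UGDH 26.8 ± 0.886. CEMIP2 followed at 8.65 ± 0.232 CPM per kb, and HYAL2 and HAS2 lay close together at 3.08 ± 0.282 and 2.55 ± 0.164. HYAL3 had 1.89 ± 0.294 CPM per kb, VCAN 0.908 ± 0.141, HAS3 0.528 ± 0.0829 and HYAL1 0.255 ± 0.0925. The receptor and CEMIP were thus the most abundant transcripts, and the synthases and hyaluronidases the scarcest along with VCAN. HAS1, the remaining synthase, had 2 counts in 1 library of this group and none in the other 14 libraries.

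**Figure D1:**
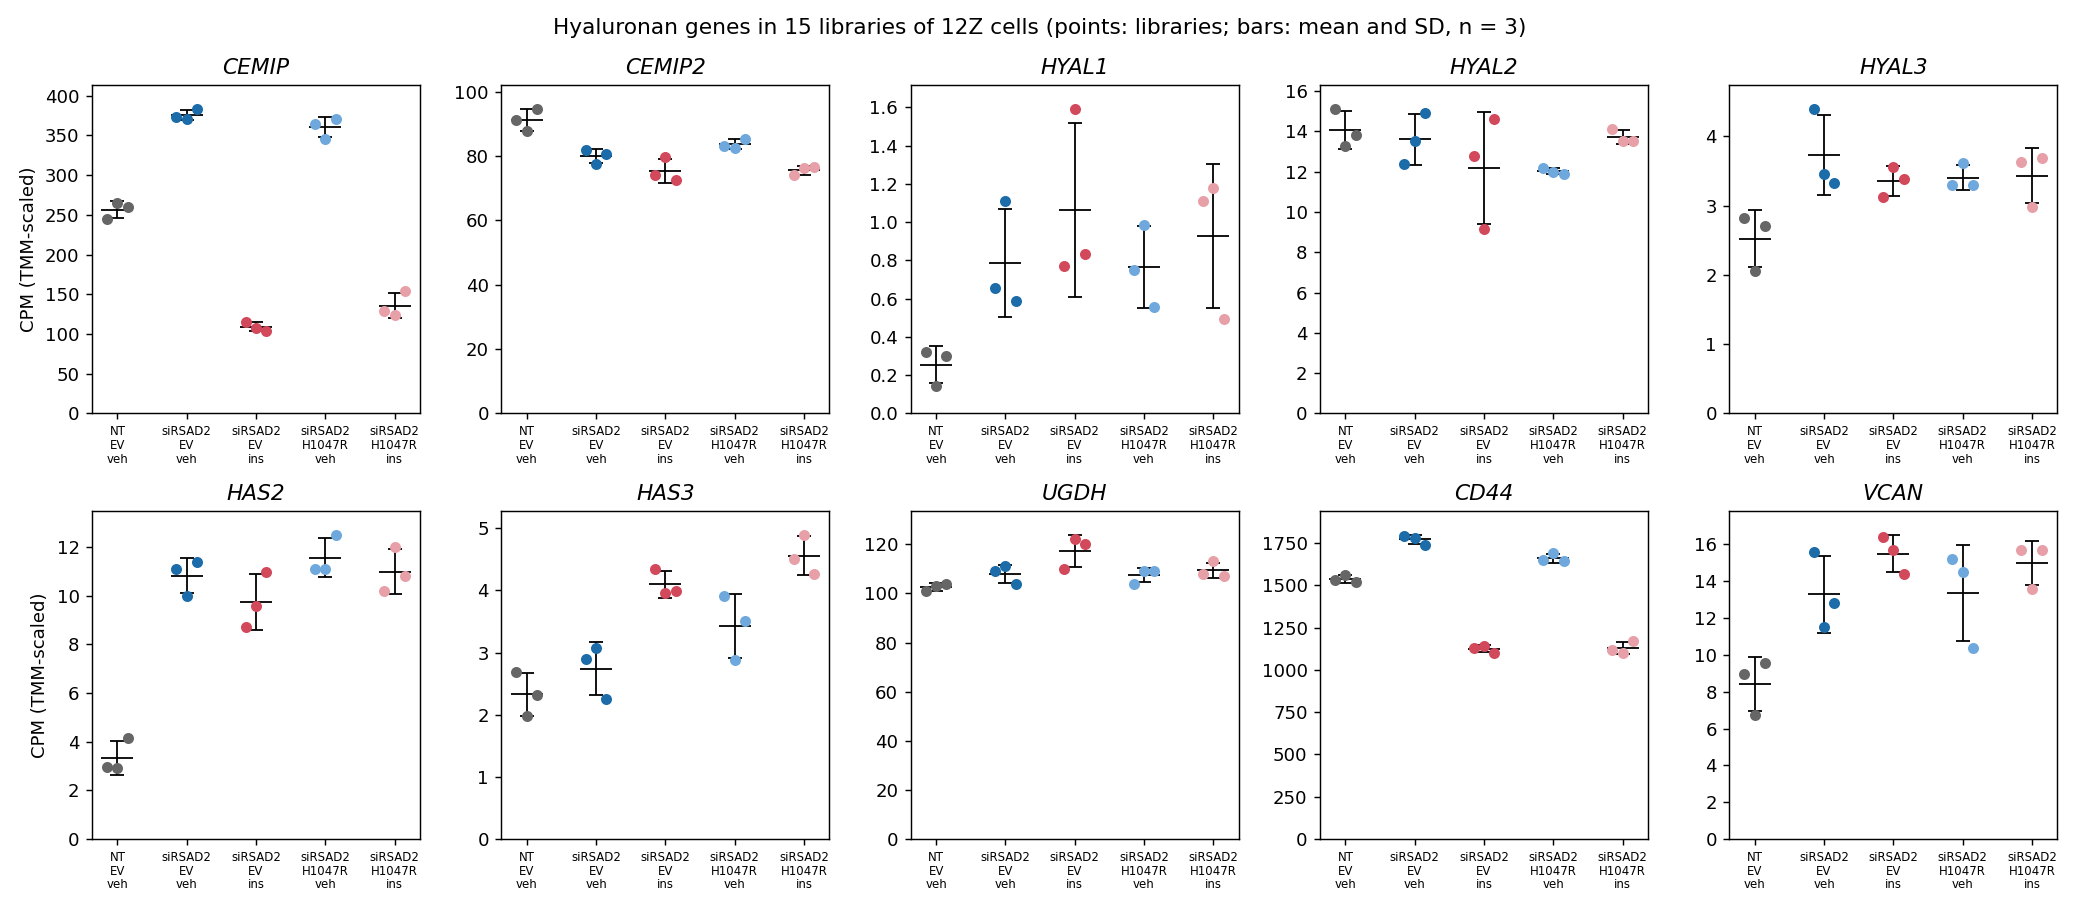
TMM-scaled CPM (vertical axes, from 0) of the 10 hyaluronan genes in the 5 groups (horizontal axes; veh, vehicle; ins, insulin); each point is 1 library, with the mean and SD of the 3 drawn beside it. CEMIP and CD44 are lower in every insulin library than in every other library, and HAS2 is lower in the 3 NT libraries than in all 12 siRSAD2 libraries.

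CEMIP encodes a secreted and membrane-associated protein needed for the cutting of high molecular weight hyaluronan in skin and synovial fibroblasts, and CEMIP2 a related transmembrane protein for which hyaluronidase activity at the cell surface has been described. CEMIP (ENSG00000103888.17) lies on hg38 chromosome 15, 80779343 to 80951776, plus strand, and CEMIP2 (ENSG00000135048.14) on chromosome 9, 71683366 to 71816690, minus strand. The 250 bases before the RefSeq start of each (GRCh38.p14) are shown because the pair had unlike values with insulin, CEMIP from chr15:80779120-80779369 (plus strand) and CEMIP2 from chr9:71768514-71768763 (minus strand), with the letters TATAAA in capitals:
CEMIP: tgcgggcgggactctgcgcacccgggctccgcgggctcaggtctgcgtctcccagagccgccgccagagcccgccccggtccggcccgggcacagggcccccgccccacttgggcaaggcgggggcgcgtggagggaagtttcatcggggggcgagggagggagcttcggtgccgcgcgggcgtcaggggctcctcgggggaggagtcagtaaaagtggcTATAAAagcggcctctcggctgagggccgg
CEMIP2: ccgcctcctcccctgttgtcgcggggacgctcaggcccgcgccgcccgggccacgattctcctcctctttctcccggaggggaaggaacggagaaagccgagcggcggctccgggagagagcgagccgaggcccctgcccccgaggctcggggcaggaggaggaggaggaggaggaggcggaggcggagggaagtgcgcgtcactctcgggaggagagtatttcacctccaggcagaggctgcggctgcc

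The CEMIP window holds TATAAA 30 bases before the start and the CEMIP2 window does not, and 10.7% of 35116 RefSeq promoter windows of this length hold it on either strand. The last 27 bases of the CEMIP window lie in an exon of another annotated transcript. The CEMIP2 window lies within the CEMIP2 gene span given above, whose annotated start is further upstream than the RefSeq start used here. Neither window holds the letters TGANTCA of an AP-1 site (6.57% of windows), GGAATG of a TEAD site (11.9%) or GTAAACA of a FOXO site (2.98%). These matches describe the letters in the windows only.

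CEMIP had 245, 265 and 260 CPM in the NT libraries and 373, 371 and 383 CPM in siRSAD2 EV vehicle libraries. It had 115, 108 and 104 CPM in siRSAD2 EV insulin, 365, 346 and 371 CPM in siRSAD2 H1047R vehicle and 129, 124 and 154 CPM in siRSAD2 H1047R insulin libraries. The groups fell into 3 ranges that did not overlap, insulin lowest, NT between and the siRSAD2 vehicle groups highest. Insulin-treated siRSAD2 cells therefore had less CEMIP than NT cells, although NT cells were not given insulin in these libraries. CEMIP2 had 87.9 to 94.6 CPM in NT, 77.6 to 81.8 in siRSAD2 EV vehicle, 72.5 to 79.7 in siRSAD2 EV insulin, 82.4 to 85.4 in siRSAD2 H1047R vehicle and 74.0 to 76.5 CPM in siRSAD2 H1047R insulin libraries. The NT libraries were the highest, and the siRSAD2 EV groups with and without insulin overlapped.

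RSAD2 encodes viperin, and its knockdown was compared with NT in EV vehicle cells. The NT libraries are numbered 4 to 6 and the siRSAD2 libraries 1 to 3, so a difference between experiments and the effect of the siRNA cannot be told apart. The hyaluronan genes mostly rose: 6 of 10 were higher, 1 was lower and 3 did not pass (edgeR quasi-likelihood test, Benjamini-Hochberg adjusted p below 0.05). Of all tested genes 19.5% changed, 9.82% being higher and 9.72% lower. Groups did not overlap for 7 of the 10, against 33.2% of all genes, and the median log2 fold change was 0.39 against 0.02 over all genes. CEMIP is among the 6 higher genes and the 7 without overlap, and it enters the median. The siRSAD2 EV vehicle libraries are also the vehicle arm of the insulin comparison that chose CEMIP.

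The synthase HAS2 changed most. HAS2 (ENSG00000170961.7, chromosome 8, 121612116 to 121641440, minus strand) encodes the main synthase of high molecular weight hyaluronan in mesenchymal cells. It had 2.97, 2.91 and 4.16 CPM with NT and 11.1, 10.0 and 11.4 CPM with siRSAD2, every siRSAD2 library being above every NT library. The rise was 3.26-fold, with a log2 fold change of 1.71 ± 0.13 (SE) and an edgeR adjusted p = 2.76e-11. HAS3 (ENSG00000103044.11, chromosome 16, 69105653 to 69118719, plus strand), which makes shorter chains, overlapped between groups, at 1.98 to 2.68 CPM with NT and 2.26 to 3.07 CPM with siRSAD2. Its log2 difference of 0.24 ± 0.18 had a 95% interval from -0.13 to 0.60. UGDH (ENSG00000109814.12, chromosome 4, 39498755 to 39528311, minus strand), whose product is consumed by every synthase, had 101 to 104 CPM with NT and 104 to 111 CPM with siRSAD2, a log2 difference of 0.07 ± 0.05 that did not pass.

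Expressed per kb, HAS2 made up 63.6 ± 5.64% (SD, n = 3) of summed synthase transcripts in NT cells and 82.5 ± 2.60% in siRSAD2 EV vehicle cells, and the ranges of 57.6 to 68.8% and 80.0 to 85.2% did not overlap. HAS3 made up 36.4 ± 5.64% and 17.1 ± 3.12%. These shares follow from the HAS2 difference above and are not a separate test. The antisense RNA HAS2-AS1, which overlaps HAS2 by 251 exon bases on the other strand, had 0.372 ± 0.112 CPM with NT and 0.440 ± 0.231 CPM with siRSAD2 and did not pass in any comparison. Only 2.59% of reads over HAS2 lay on the strand opposite to the gene.

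Among genes that cut hyaluronan, CEMIP rose by 0.55 ± 0.06 on the log2 scale with siRSAD2 (1.46-fold, edgeR adjusted p = 1.5e-08), in libraries of which the siRSAD2 group is also the vehicle arm of the insulin comparison that chose it. CEMIP2 fell by 0.19 ± 0.05 (adjusted p = 0.00693). From NT to siRSAD2 EV vehicle cells CEMIP went from 33.7 to 49.3 CPM per kb and CEMIP2 from 9.86 to 8.65. With both differences, the CEMIP2 share of summed CEMIP and CEMIP2 transcripts per kb was 22.6 ± 1.07% in NT and 14.9 ± 0.327% in siRSAD2 EV vehicle cells. The CEMIP2 call did not hold without NT library 6 (adjusted p = 0.0875) or without siRSAD2 EV vehicle library 2 (adjusted p = 0.0729).

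The hyaluronidase genes lie side by side on chromosome 3, minus strand, HYAL3 (ENSG00000186792.17) at 50292831 to 50299405, HYAL1 (ENSG00000114378.17) at 50299890 to 50312381 and HYAL2 (ENSG00000068001.14) at 50317790 to 50322782. HYAL1, a lysosomal enzyme, had 0.322, 0.144 and 0.300 CPM with NT, from 4 to 9 counts, and 0.657, 1.11 and 0.590 CPM with siRSAD2, from 17 to 29 counts. HYAL3, whose enzyme activity is weak or absent in most settings, had 2.82, 2.05 and 2.70 CPM with NT and 4.39, 3.46 and 3.33 CPM with siRSAD2. Both were higher in each siRSAD2 library than in each NT library. HYAL1 rose by 1.61 ± 0.48 on the log2 scale (adjusted p = 0.0143) and HYAL3 by 0.56 ± 0.17 (adjusted p = 0.0173). Neither call held without NT library 5 (adjusted p = 0.0907 and 0.122), nor did HYAL1 without siRSAD2 EV vehicle library 2 (0.0842) or HYAL3 without siRSAD2 EV vehicle library 1 (0.114).

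HYAL2, which is anchored at the cell surface and cuts long chains into intermediate ones, had 13.3 to 15.1 CPM with NT and 12.4 to 14.9 CPM with siRSAD2. Its log2 difference of -0.05 ± 0.11 did not pass. Per kb HYAL2 made up 70.1 ± 2.97% of the summed hyaluronidase transcripts in NT cells and 58.9 ± 5.33% in siRSAD2 EV vehicle cells, and HYAL1 1.79 ± 0.565% and 4.89 ± 1.83%. HYAL2 was thus the most abundant hyaluronidase transcript in both groups. HYAL2 shares 509 exon bases with TUSC2 and HYAL3 shares 275 with IFRD2 and NAA80 on the same strand, where reads cannot be assigned to either gene. With siRSAD2 NAA80 had a log2 difference of 0.44 ± 0.16 (adjusted p = 0.0501), IFRD2 -0.10 ± 0.08 and TUSC2 -0.17 ± 0.08, none of which passed.

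CD44 (ENSG00000026508.19, chromosome 11, 35138882 to 35232402, plus strand), the principal hyaluronan receptor, had 1530, 1560 and 1520 CPM with NT and 1790, 1780 and 1740 CPM with siRSAD2. The groups did not overlap, and the rise was 0.20 ± 0.04 on the log2 scale, or 1.15-fold (adjusted p = 0.000106). VCAN (ENSG00000038427.16, chromosome 5, 83471618 to 83582303, plus strand), a large proteoglycan that binds hyaluronan through its amino-terminal domain, had 8.97, 6.76 and 9.57 CPM with NT and 15.6, 11.5 and 12.8 CPM with siRSAD2. It rose 1.59-fold, by 0.67 ± 0.13 (adjusted p = 0.000344), again with every siRSAD2 library above every NT library.

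**Figure D2:**
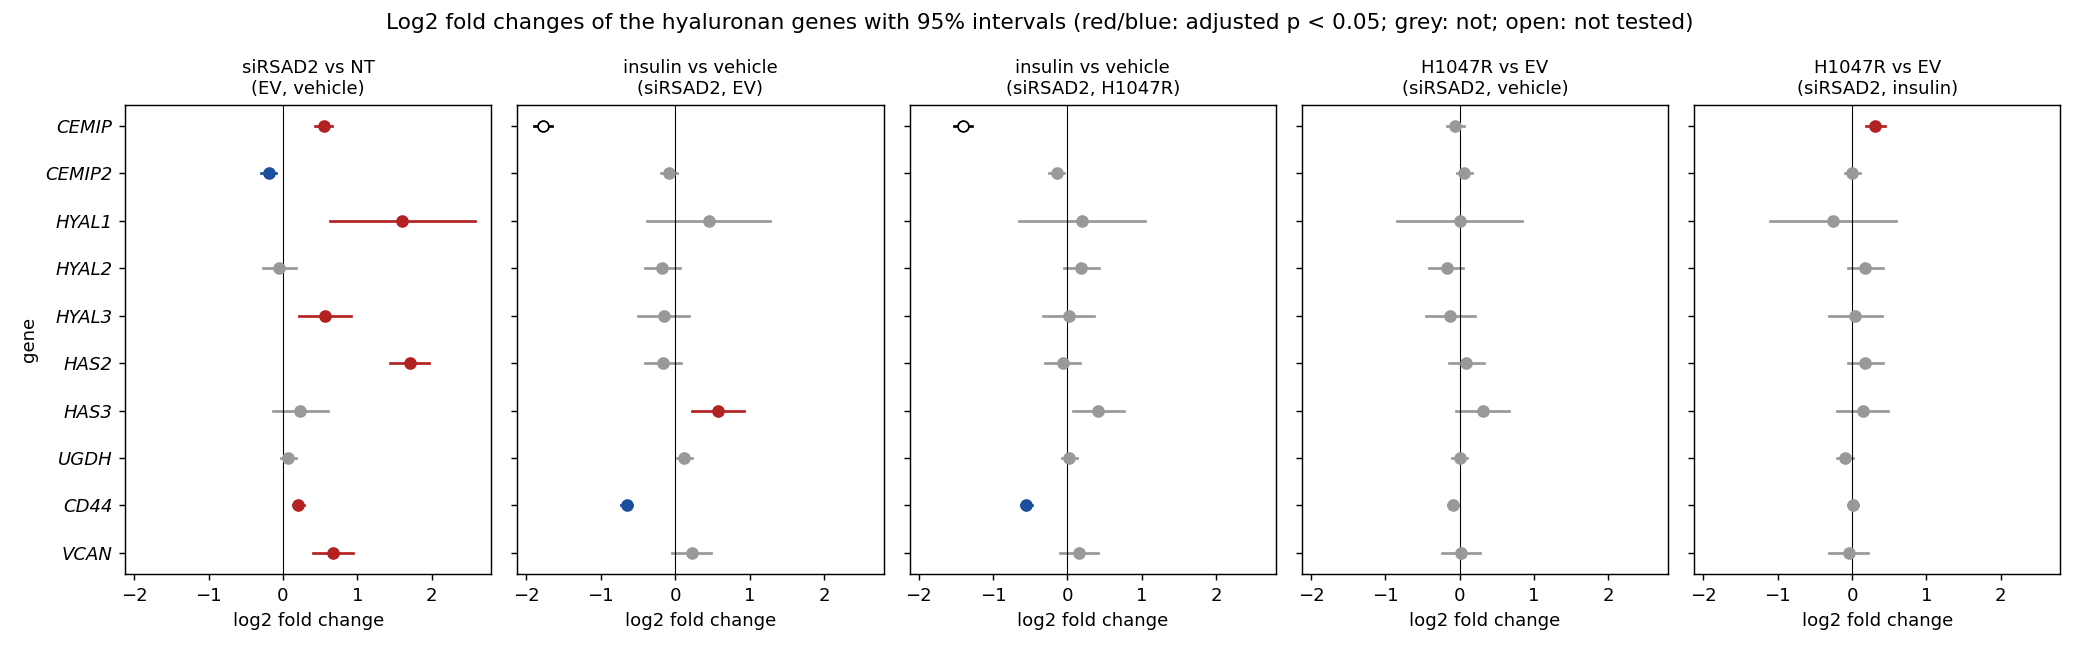
Log2 fold changes (horizontal axes) of the 10 hyaluronan genes (vertical axis) in the 5 comparisons of 2 groups, with 95% intervals as lines; genes past an adjusted p of 0.05 are red where higher and blue where lower, others are grey, and open points show CEMIP under insulin, which was not tested. The CEMIP intervals under insulin do not allow for its choice on that fall. With siRSAD2 6 genes are red and 1 is blue, with insulin CD44 is blue in both vectors, and with H1047R only CEMIP in insulin-treated cells passes.

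Insulin was compared with vehicle in siRSAD2 EV cells. Among the 9 genes other than CEMIP, CD44 fell, HAS3 rose and 7 did not pass, where 6.28% of all tested genes changed (2.1% higher, 4.19% lower). CEMIP itself, described without a test, was 3.43-fold lower with insulin, a log2 fold change of -1.78 ± 0.06 (SE). Its 95% interval from -1.90 to -1.66 does not allow for the choice of CEMIP on this fall. Leaving CEMIP aside, groups did not overlap for 2 of 9 genes (CD44 and HAS3), against 18.9% of all genes.

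CD44 had 1130, 1140 and 1100 CPM with insulin, all below the 1740 to 1790 CPM of the vehicle libraries. It fell by 0.65 ± 0.04 on the log2 scale, or 1.57-fold (edgeR adjusted p = 1.39e-13). HAS3 had 4.35, 3.95 and 3.99 CPM with insulin and 2.90, 3.07 and 2.26 CPM with vehicle. It rose by 0.58 ± 0.17 (adjusted p = 0.0377). Its counts were low, 65 to 84 with vehicle and, in shallower libraries, 67 to 107 with insulin. This call was lost when any of 5 of the 6 compared libraries was left out, siRSAD2 EV vehicle library 1 (adjusted p = 0.0572) or 3 (0.215) or siRSAD2 EV insulin library 1 (0.0985), 2 (0.0618) or 3 (0.0715), and when the fit held no other groups (0.154). Over HAS3, which shares exon bases with CHTF8 and DERPC on the other strand, 88.2% of all strand-assigned reads lay on that other strand. These were 9616 against 1283 on the HAS3 strand over all libraries. The unstranded count of HAS3 was 1300 over all libraries, and its call with insulin in EV cells was kept with unstranded counts.

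HAS2 with insulin had 8.70, 9.57 and 11.0 CPM, overlapping the 10.0 to 11.4 CPM of vehicle cells, and its log2 difference of -0.16 ± 0.12 had a 95% interval from -0.40 to 0.08. The rise of HAS2 with siRSAD2 was thus not matched by a detectable change with insulin. Per kb HAS3 made up 25.6 ± 3.11% of synthase transcripts with insulin against 17.1 ± 3.12% with vehicle. UGDH had a log2 difference of 0.12 ± 0.05 that did not pass (adjusted p = 0.158), although it did without siRSAD2 EV insulin library 1, at 0.17 (adjusted p = 0.0369).

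CEMIP2 differed by -0.08 ± 0.05 with insulin, with a 95% interval from -0.19 to 0.02. As CEMIP was lower, its share of summed CEMIP and CEMIP2 transcripts per kb was 85.1 ± 0.327% with vehicle and 63.7 ± 1.57% with insulin. CEMIP remained the more abundant of the pair even then. The hyaluronidases had log2 differences of 0.45 ± 0.41 (HYAL1), -0.17 ± 0.11 (HYAL2) and -0.15 ± 0.17 (HYAL3), and VCAN 0.22 ± 0.13, none of which passed. The HYAL1 and HYAL2 differences were -0.14 and 0.07 without siRSAD2 EV vehicle library 3 and siRSAD2 EV insulin library 2, the libraries that stood apart, so neither had a stable sign. In siRSAD2 EV insulin library 2 HYAL2 was 9.14 CPM against 12.8 and 14.6 CPM in the other libraries of the group, and HYAL1 1.59 CPM against 0.773 and 0.834 CPM.

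**Figure D3:**
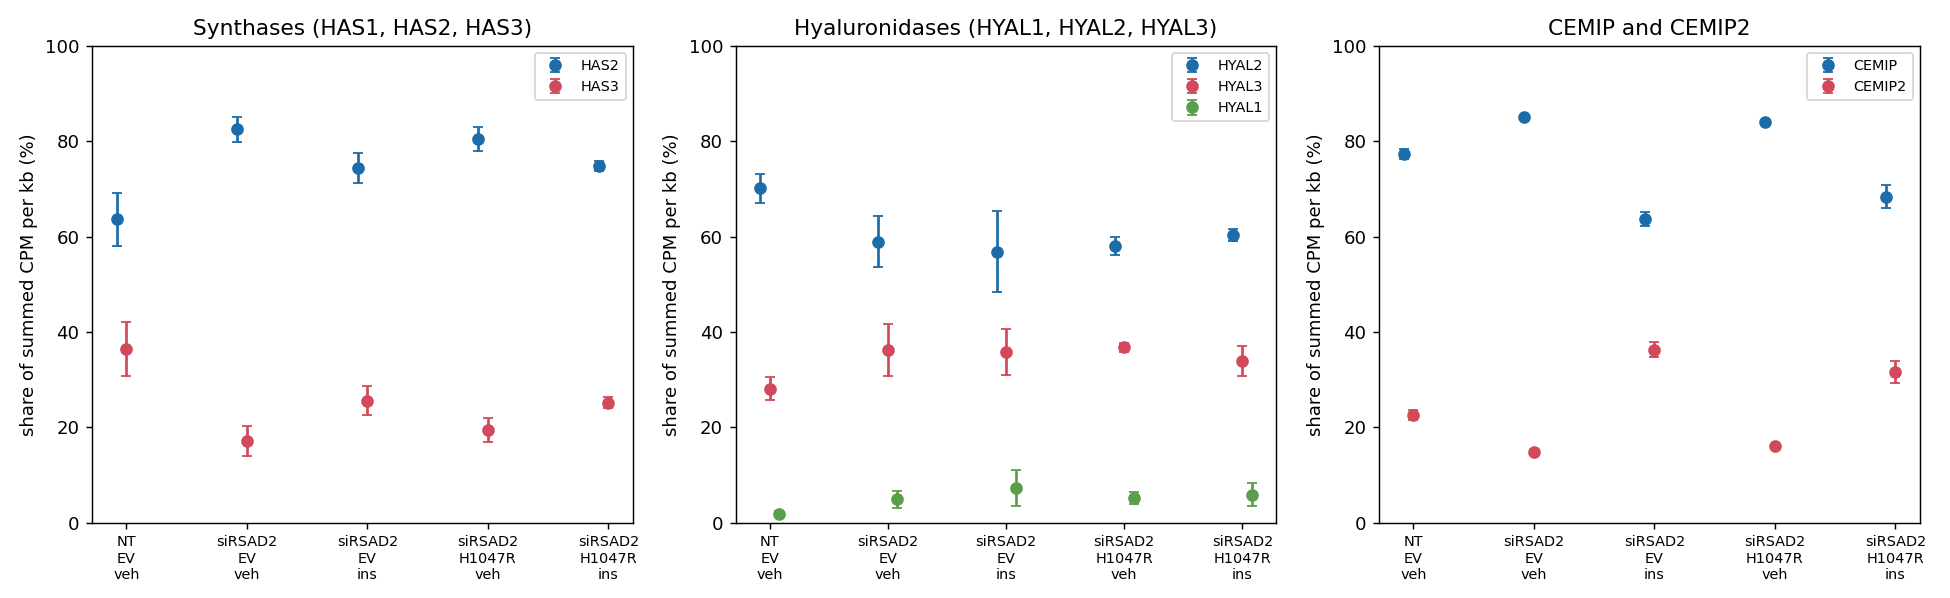
Share of the summed CPM per kb of each family (vertical axes, %) taken by its members in the 5 groups (horizontal axes); points are means and bars SD of 3 libraries, and HAS1, near 0 throughout, is left out. HAS2 goes from 63.6% of synthase transcripts in NT to 82.5% in siRSAD2 EV vehicle cells, and CEMIP from 85.1% to 63.7% of the CEMIP pair with insulin in EV cells.

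In siRSAD2 H1047R cells insulin lowered CD44 alone among the 9 tested genes, where 2.47% of all tested genes changed and 1.99% were lower. CD44 had 1650, 1690 and 1640 CPM with vehicle and 1120, 1100 and 1170 CPM with insulin, with no overlap. It fell by 0.56 ± 0.04 on the log2 scale, or 1.47-fold (adjusted p = 1.62e-11). CEMIP, as a description, was 2.65-fold lower, a log2 fold change of -1.41 ± 0.06. These libraries are separate from those of the EV insulin comparison, though CEMIP was picked with both known.

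Leaving CEMIP aside, groups did not overlap for 4 of 9 genes in the H1047R insulin comparison, against 19.4% of all genes, namely CD44, CEMIP2, HAS3 and HYAL2. HAS3 had 3.91, 2.88 and 3.50 CPM with vehicle and 4.50, 4.89 and 4.27 CPM with insulin. Its log2 difference of 0.42 ± 0.17 did not pass (adjusted p = 0.28), nor did those of CEMIP2 (-0.15 ± 0.05, adjusted p = 0.176) and HYAL2 (0.18 ± 0.11, adjusted p = 0.631). HAS2 differed by -0.07 ± 0.11, HYAL1 by 0.20 ± 0.41, HYAL3 by 0.02 ± 0.17, VCAN by 0.16 ± 0.13 and UGDH by 0.03 ± 0.05.

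The difference between the insulin effects with H1047R and with EV (the interaction) passed for none of the 9 tested genes and for 0 of all 23184 genes with edgeR (0% called), with 1611 genes at an unadjusted p below 0.05 and 4 genes called by DESeq2. Among the 9 tested genes only HYAL2 had an unadjusted p below 0.05, at 0.36 ± 0.16 on the log2 scale (unadjusted p = 0.0338, edgeR adjusted p = 0.711). CD44 had an interaction of 0.10 ± 0.05, with a 95% interval from -0.01 to 0.20, and CEMIP one of 0.37 ± 0.08, which is given as a description. HAS3 had -0.16 ± 0.24 and HAS2 0.09 ± 0.16.

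H1047R was compared with EV in siRSAD2 cells to see the effect of the activated kinase on top of the knockdown. With vehicle 0 of the 10 genes passed with edgeR, where 1.36% of all tested genes changed (0.621% higher, 0.742% lower), and 1 gene, CD44, had an unadjusted p below 0.05. CD44 had 1640 to 1690 CPM with H1047R and 1740 to 1790 CPM with EV, a log2 difference of -0.09 ± 0.04 (edgeR adjusted p = 0.269). DESeq2 called it (adjusted p = 0.0483). Groups did not overlap for CD44, CEMIP2 and HYAL2, 3 of 10 genes against 19% of all genes. CEMIP had a log2 difference of -0.06 ± 0.06, with a 95% interval from -0.17 to 0.06, and HAS2 one of 0.09 ± 0.11, from -0.14 to 0.32.

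With insulin, CEMIP was higher with H1047R than with EV, and it was the only one of the 10 genes to pass, where 0.285% of all tested genes changed (0.22% higher, 0.0647% lower). CEMIP had 129, 124 and 154 CPM with H1047R and 115, 108 and 104 CPM with EV, so the groups did not overlap, although 2 of the H1047R libraries lay near the highest EV library. It rose by 0.31 ± 0.06 on the log2 scale, or 1.24-fold (edgeR adjusted p = 0.0112), in libraries that also enter the insulin comparisons that chose it. Without siRSAD2 H1047R insulin library 3 the difference was 0.21 (adjusted p = 0.277), and a fit without the other groups gave 0.32 (adjusted p = 0.0724). For the other 9 genes groups overlapped, against 12.8% of all genes whose groups did not. CD44 differed by 0.01 ± 0.04, with a 95% interval from -0.06 to 0.08.

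**Figure D4:**
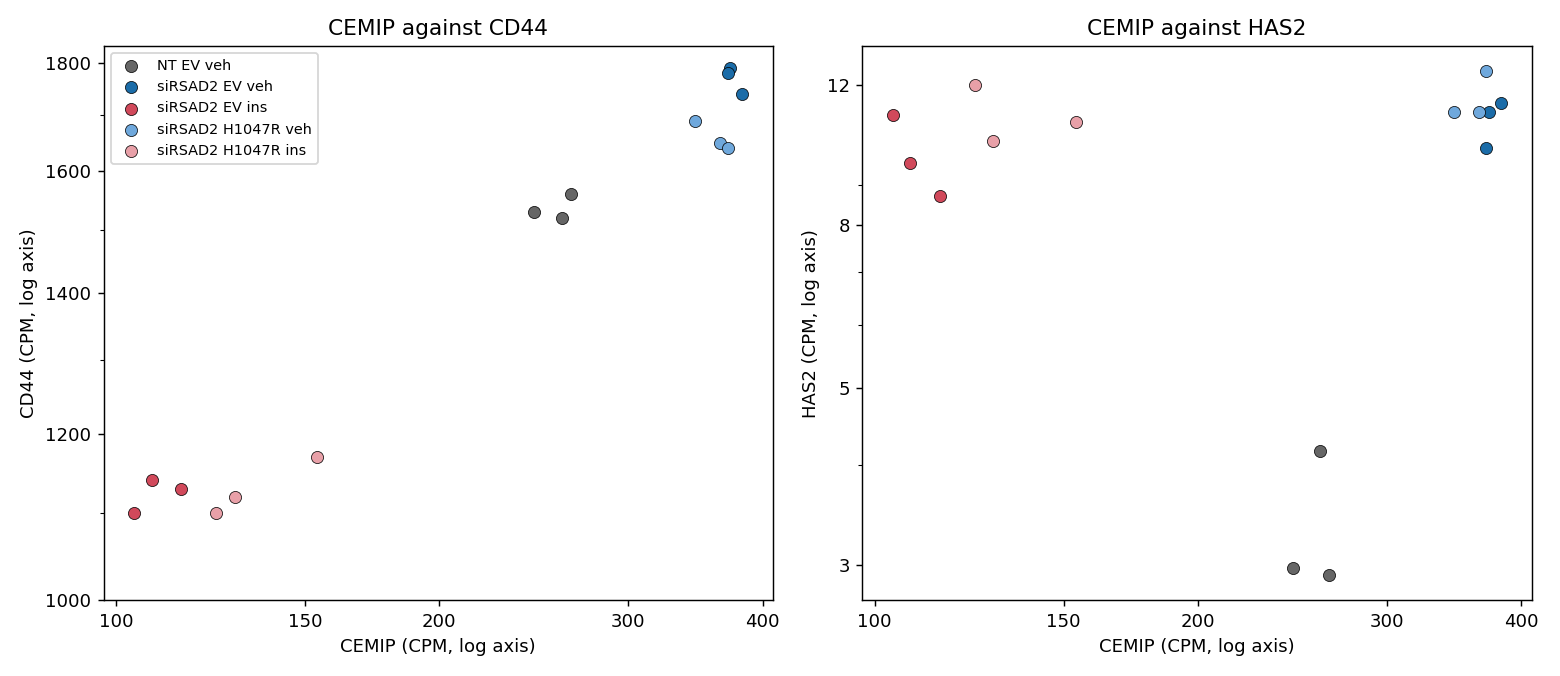
CEMIP (horizontal axes) against CD44 (left, vertical axis) and HAS2 (right, vertical axis) in CPM on log axes; each point is 1 of 15 libraries, colored by group. CD44 orders the groups much as CEMIP does, whereas HAS2 separates the NT libraries, at 2.91 to 4.16 CPM, from the siRSAD2 libraries, at 8.70 to 12.5 CPM, whatever their CEMIP.

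Across the 15 libraries the gene whose log2 CPM followed that of CEMIP most closely, out of 9592 genes with a mean of at least 10 CPM, was CD44 (Pearson r = 0.98). Next came MYLK, a myosin light chain kinase (0.98), THSD4, a matrix protein of microfibrils (0.98), LOX, which crosslinks collagen (0.97), and the zinc finger factor HIVEP2 (0.97). All 5 were highest in siRSAD2 EV vehicle cells and lowest in siRSAD2 EV insulin cells, LOX for example at 450 and 325 CPM. The points share libraries and fall into the treatment groups, so these values describe the group pattern only. Of the other hyaluronan genes CEMIP2 had r = 0.58 with CEMIP, HAS2 -0.07, HYAL2 0.09, HYAL3 0.01, VCAN -0.38, HYAL1 -0.39, UGDH -0.60 and HAS3 -0.67. The opposite signs of CD44 and HAS3 restate their opposite insulin values in the same libraries and are not a separate observation.

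A wider list of 53 genes held the rest of the pathway by role, and 38 passed the count filter. Those not tested included LYVE1 and STAB2, receptors of lymphatic and sinusoidal endothelium, the sperm hyaluronidase SPAM1 and most link proteins and inter-alpha-trypsin inhibitor heavy chains. With siRSAD2 11 of the 38 rose and 8 fell, 50% against 19.5% of all genes, with a median log2 fold change of 0.05, or 0 without 3 genes that had no counts in the NT libraries. With insulin in EV cells 2 rose and 7 fell, 23.7% against 6.28%, and in H1047R cells 0 rose and 5 fell, 13.2% against 2.47%. The list was written with earlier results of these data known. Its shares, here and by role below, are therefore a description and not a test. H1047R lowered 1 of the 38 in vehicle cells, where 1.36% of all tested genes changed and 0.742% were lower. This was the membrane-cytoskeleton linker MSN at -0.18 ± 0.04, named after its value was seen. In insulin-treated cells 0 of the 38 passed with edgeR, against 0.285% of all genes, and 6 of the 38 had an unadjusted p below 0.05.

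The proteases that cut versican had 3 of 5 tested members up with siRSAD2, and 2 down with insulin in either vector. Over all tested genes 9.82% were higher with siRSAD2, and 4.19% and 1.99% were lower with insulin in EV and H1047R cells. ADAMTS1 had 45.8 to 49.6 CPM with NT, 81.8 to 88.4 CPM with siRSAD2 and 57.4 to 65.0 CPM with siRSAD2 and insulin. It rose by 0.83 ± 0.06 with siRSAD2 (adjusted p = 2.08e-12) and fell by 0.46 ± 0.06 with insulin in EV cells (adjusted p = 9.72e-07) and by 0.31 ± 0.06 in H1047R cells (adjusted p = 0.000584). ADAMTS5 rose by 0.83 ± 0.08 and fell by 0.76 ± 0.08 and by 0.44 ± 0.08. ADAMTS1 and ADAMTS5 thus moved with siRSAD2 in the direction of their substrate VCAN, and with insulin in EV cells had falls beside a VCAN value of 0.22 ± 0.13 that did not pass. The siRSAD2 and EV insulin values share the siRSAD2 EV vehicle libraries and are not independent.

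Among matrix partners of hyaluronan 2 of 9 rose and 1 fell with siRSAD2, against 9.82% and 9.72% of all tested genes. With insulin in EV cells 2 rose and 1 fell, against 2.1% and 4.19% of all tested genes. PTX3, which helps to crosslink heavy-chain-coated hyaluronan, had 30 to 31.6 CPM with NT, 84.7 to 87.0 CPM with siRSAD2 and 41.1 to 51.8 CPM with siRSAD2 and insulin. It rose by 1.47 ± 0.07 with siRSAD2 (adjusted p = 1.58e-15) and fell by 0.84 ± 0.07 with insulin in EV and by 0.72 ± 0.07 in H1047R cells. ITIH5, a heavy chain family member, rose in both, by 0.90 ± 0.21 with siRSAD2 and by 0.68 ± 0.19 with insulin in EV cells. TNFAIP6, the enzyme that transfers heavy chains to hyaluronan, went the other way from PTX3, at -0.60 ± 0.17 with siRSAD2 and 0.57 ± 0.17 with insulin in EV cells. The siRSAD2 EV vehicle libraries enter both comparisons. With insulin in H1047R cells neither ITIH5 nor TNFAIP6 passed.

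Of the 8 precursor sugar enzymes 3 rose and 2 fell with siRSAD2, against 9.82% and 9.72% of all tested genes. GFPT2 and GFPT1, which catalyse the entry step of hexosamine synthesis, rose by 0.47 ± 0.05 and 0.31 ± 0.04 (adjusted p = 3.26e-08 and 2.62e-06), and PGM3 of the same route by 0.16 ± 0.05. UGP2, which makes the UDP-glucose that UGDH oxidizes, fell by 0.16 ± 0.05. GNPNAT1, another hexosamine enzyme, had a log2 difference of 0.00 ± 0.07 that did not pass. With insulin in EV cells GFPT2 fell by 0.26 ± 0.05 (adjusted p = 0.0012) and no other precursor gene passed. Its siRSAD2 and EV insulin values share the siRSAD2 EV vehicle libraries, and in H1047R cells no precursor gene passed with insulin. Of 5 tested receptors HMMR, which is also a mitotic spindle protein, and LAYN fell by 0.46 ± 0.06 and by 0.41 ± 0.07 with siRSAD2, TLR4 rose by 0.55 ± 0.17, and none passed with insulin.

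GUSB, a lysosomal glucuronidase that acts on hyaluronan fragments, rose by 0.23 ± 0.06 with siRSAD2 and fell by 0.21 ± 0.06 with insulin in EV and by 0.29 ± 0.06 in H1047R cells. Among 7 genes that link CD44 to the cytoskeleton or shed it, the sheddase MMP14 rose by 0.25 ± 0.05 with siRSAD2 and fell by 0.19 ± 0.05 with insulin in EV and by 0.20 ± 0.05 in H1047R cells. EZR, which ties the CD44 tail to actin, fell by 0.19 ± 0.04 with siRSAD2 and by 0.15 ± 0.04 with insulin in EV cells. EZR did not pass with insulin in H1047R cells. For GUSB, MMP14 and EZR the siRSAD2 EV vehicle libraries enter both the siRSAD2 and the EV insulin comparison.

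**Figure D5:**
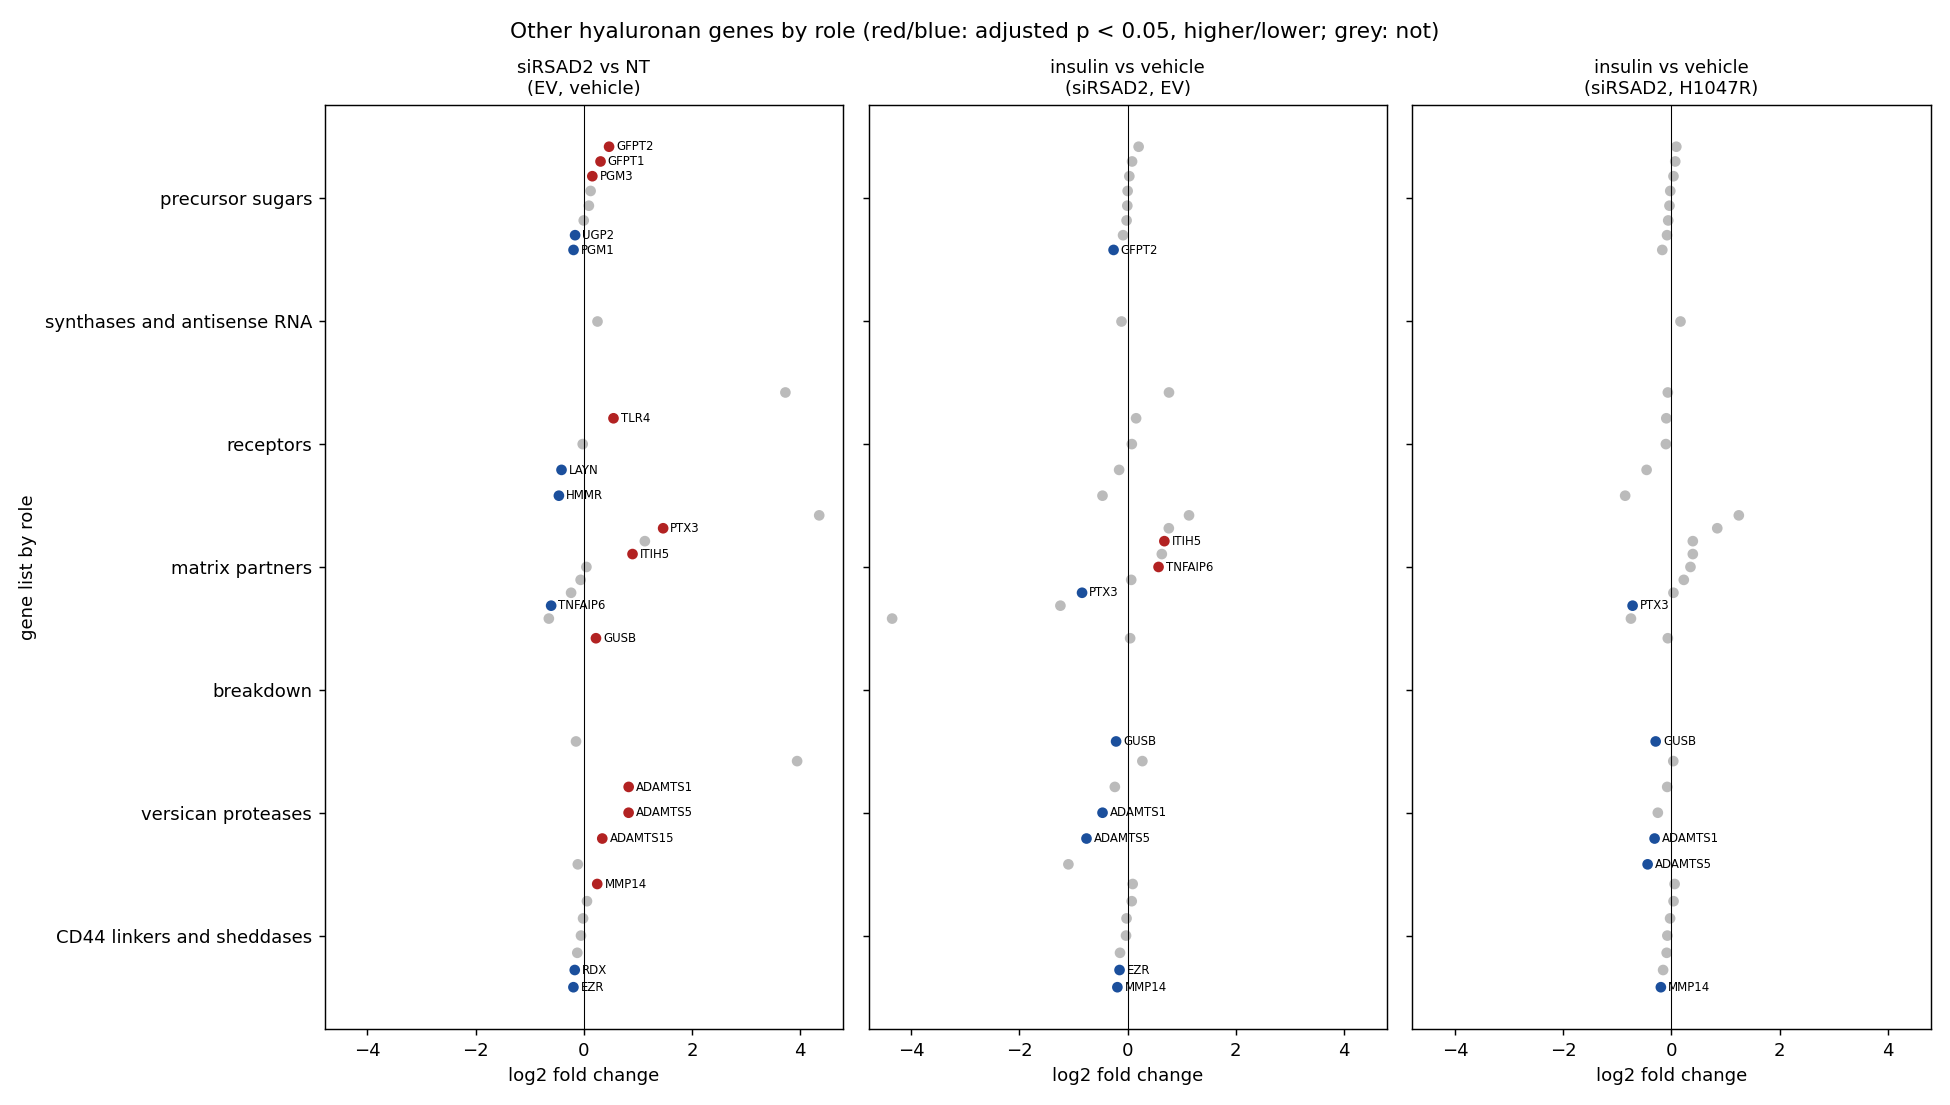
Log2 fold changes (horizontal axes) of the 38 tested genes of the wider list, 1 of them left out, by role (vertical axis) for siRSAD2 and for insulin in either vector; each gene is a point, red where it rose, blue where it fell and grey where it did not pass an adjusted p of 0.05. ADAMTS1, ADAMTS5, GUSB, MMP14 and PTX3 are red with siRSAD2 and blue with insulin in both vectors, and the grey points beyond 3 belong to genes with at most 5 counts in any library. The siRSAD2 panel and the EV insulin panel share the siRSAD2 EV vehicle libraries, so their values are not independent.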

How the data were processed

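12Z libraries were made from 500 ng of total RNA with a stranded mRNA kit and sequenced as read pairs. The authors trimmed reads with cutadapt and Trim Galore, used STAR for alignment to hg38, and deposited its raw gene counts without normalization. Tool versions are not given in the sources used here. The annotation release named in the methods carries a mouse number, whereas the identifiers are human. The reverse-stranded counts were used. Rows that name no gene (unmapped, multimapping, outside genes, ambiguous) were kept out and held 22.2% to 30.6% of each library. Of 60617 identifiers 60357 matched GENCODE release 44 without their version, which gave symbols, positions and exon lengths. Promoters come from RefSeq.

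Groups came from the labels. Genes averaging 1 count or more over the libraries were fitted in edgeR 4.0.16 (R 4.3.3), all 15 libraries in 1 fit with a term per group, TMM scaling, the quasi-likelihood F test and Benjamini-Hochberg adjustment over all 23184 genes (threshold 0.05). SE is the log2 fold change over the root of F. The methods state independent experiments. The reported fit did not pair libraries by their number. NT libraries are numbered 4 to 6, which no label ties to the siRSAD2 libraries. The fit was tested on data simulated from its own estimates of spread. The simulated data held no library that stood apart, so they cannot show how the fit handles such libraries. CPM per kb uses the union of exons.

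Members and lists were chosen with earlier results of these data known. Named were all 10 members, RSAD2, PIK3CA, the 5 genes most like CEMIP (log2 of CPM + 1), and per role of the wider list up to 2 genes, those past the threshold that had the lowest p; MSN, TNFAIP6, UGP2, PGM3, GNPNAT1, TLR4 and those not tested were added after their values were seen, and 1 gene of the wider list is not reported here. DESeq2 1.42.0 and the other alternatives are given at the end.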

Additional observations from a re-analysis of the deposited data

How the results depend on the processing

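Counts limit HYAL1, HAS3 and HYAL3 most, and with 3 libraries a group small changes cannot be seen. The alternatives below cover the 10 members and the all-gene counts, and calls of single genes of the wider list were not rechecked. The calls of CD44 with insulin in both vectors, and of HAS2, CEMIP, CD44 and VCAN with siRSAD2, held under all alternatives tried. For CEMIP every alternative still used siRSAD2 EV vehicle libraries, the vehicle arm of the insulin comparison that chose it. The alternatives therefore cannot show how that choice bears on its call. Unless a value shows otherwise, the cause of each change below was not tested. With DESeq2, 1 of the 10 genes passed for H1047R in vehicle cells, and all-gene counts were 157 for H1047R in insulin-treated cells and 4 for the interaction. Without a filter HAS3 did not pass with insulin in EV cells (1 member left, adjusted p = 0.0531). All-gene counts were then 707 and 418 for H1047R with vehicle and insulin and 81 for the interaction. In that fit the log2 differences of HYAL1 and UGDH for H1047R with vehicle rounded to 0. At an adjusted p below 0.001 the counts were 1761 genes and 4 members for siRSAD2, 353 and 1 for insulin in EV cells, 205 genes for insulin in H1047R cells, 11 genes for H1047R with vehicle, and 13 genes and 0 members for H1047R with insulin. Fits with only the compared groups gave 520 genes and 1 member for insulin in EV cells, 1272 genes for insulin in H1047R cells, 546 for H1047R with vehicle, and 39 genes and 0 members for H1047R with insulin. With unstranded counts HYAL1 had a log2 difference of -0.03 for insulin in H1047R cells.

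Leaving out libraries, 1 at a time or, chosen after seeing the data, both that stood apart, gave 3413 to 5241 genes for siRSAD2 (5 to 7 members), 947 to 1844 for insulin in EV cells (1 to 2 members), 354 to 910 for insulin in H1047R cells, 64 to 711 for H1047R with vehicle, 19 to 463 for H1047R with insulin (0 to 1 members) and 0 to 1 for the interaction. Without both libraries the log2 difference of HAS3 with insulin in EV cells was 0.48 (edgeR adjusted p = 0.231). Log2 differences that changed sign, given below, had not passed. For siRSAD2 HYAL2 ranged from -0.12 to 0.03. With insulin in EV cells HYAL1 ranged from -0.14 to 0.77 and HYAL2 from -0.32 to 0.07, and in H1047R cells HYAL1 from -0.01 to 0.55 and HYAL3 from -0.04 to 0.10. For H1047R with vehicle HYAL1 ranged from -0.26 to 0.32, HYAL3 from -0.21 to 0, VCAN from -0.09 to 0.15 and UGDH from -0.03 to 0.01. For H1047R with insulin CD44 ranged from -0.01 to 0.03, CEMIP2 from -0.02 to 0.04, HYAL1 from -0.46 to 0.16, HYAL3 from -0.02 to 0.13 and VCAN from -0.09 to 0.02. In the interaction HYAL1 ranged from -0.57 to 0.30 and VCAN from -0.19 to 0.04.

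Over all 18 pairs, same-numbered siRSAD2 libraries had correlations from -0.133 to 0.166, with a median of -0.016 and 2 above 0.1. Between the EV insulin and H1047R insulin groups, same-numbered pairs had 0.166, 0.148 and 0.095, and differently numbered pairs -0.153 to -0.007. Whether same-numbered libraries share an experiment cannot be told from these correlations. With the replicate block 1337 genes passed for insulin in EV and 522 in H1047R cells, 271 and 73 for H1047R with vehicle and insulin, and 0 for the interaction, and no call of a member changed. NT libraries carry other numbers, so no paired fit was possible for siRSAD2.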
